A study of Homo sapiens with 6 samples.

Results

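SR proteins and hnRNP proteins are RNA-binding proteins that decide, between them, which exons enter a messenger RNA. The genes described here are the rows of the deposited expression table whose symbol begins with SRSF or HNRNP, together with PTBP1, PTBP2, PTBP3, RBFOX2, MBNL1, MBNL2, MBNL3, QKI, TRA2A and TRA2B, without hyphenated or pseudogene symbols. This gave 44 rows of 20356, with 43 different symbols, since SRSF10 stands on 2 rows. The samples were 6 RNA-seq libraries from the EGFR-mutated lung cancer line H1975: 3 of parental cells kept under normal conditions and 3 of an osimertinib-resistant derivative cultured with 1 µM osimertinib, an inhibitor of mutant EGFR. Both were grown in RPMI-1640 with serum, and the series calls the 3 libraries of each group biological replicates. The resistant cells are a single derivative that was also in the presence of the drug, so resistance, drug exposure and the history of this derivative cannot be told apart.

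SR proteins carry RNA recognition motifs and an arginine- and serine-rich domain, bind exonic enhancers and recruit the splicing machinery, and kinases of the SRPK and CLK families phosphorylate them. The hnRNP proteins coat nascent transcripts and often repress the exons they bind, in competition with SR proteins. PTBP, RBFOX, MBNL and QKI proteins are regulators whose levels differ between tissues and developmental stages, and QKI and RBFOX2 are known for promoting exons of the mesenchymal type, in opposition to the ESRP proteins of epithelial cells. The values below are gene levels, and the exon choices themselves were not measured in them.

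Levels are given in FPKM, fragments normalised to transcript length and library size, which allows genes to be set side by side per length. Changes are resistant minus parental on the scale log2(FPKM + 1), with the standard error (SE), and adjusted p-values are those of limma over the 12107 genes whose mean reached 1 FPKM in parental or resistant cells. A gene was called at an adjusted p under 0.05. Depth in reads is unknown. The mapped sequence, estimated from the most common ratio of coverage to FPKM, was 9.72 to 14.7 gigabases per library. Only 11.9% to 12.6% of the genes above 1 FPKM lay close to that ratio, so the estimate is rough. The epithelial marker list, 8 genes with KRT8, KRT18, EPCAM and NKX2-1 among them, summed to 2978 to 3490 FPKM in parental and to 915 to 992 FPKM in resistant libraries, with NKX2-1 listed at 0 in all 3 resistant libraries and SFTPB under 0.1 FPKM in all 6. The genes of this sum fell unequally. Resistant means were 75.6%, 63.5% and 19.9% of the parental ones for KRT8, KRT18 and KRT7. For KRT19, EPCAM and CDH1 they were 0.798%, 0.485% and 0.0361%. Fibroblast markers summed to 2.41 to 2.97 and 18.1 to 22.03 FPKM, with DCN, LUM and PDGFRA under 0.1 FPKM in all libraries. Most of it was COL1A1 (means of 2.45 and 15.8 FPKM) and, in resistant cells, PDGFRB (0.0444 and 3.94 FPKM). Leukocyte markers summed to 24.1 to 27.6 and 70.4 to 80.3 FPKM, nearly all of it CD14 and CD68, with PTPRC, CD3E and LYZ under 0.1 FPKM throughout. Endothelial markers summed to 0.673 to 0.846 and 1.17 to 1.53 FPKM, with VWF under 0.1 FPKM. Most of it was CDH5 (means of 0.503 and 1.06 FPKM), while KDR was lower in resistant cells (0.190 and 0.124 FPKM). Neuronal markers summed to 2.001 to 2.30 and 1.10 to 1.51 FPKM. Of these SNAP25 had means of 0.99 and 0.00287 FPKM, SYP was higher in resistant cells (0.441 and 0.584 FPKM), and TUBB3, MAP2 and RBFOX3 changed little. The part of these differences in the results below was not tested.

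Most of the splicing factors were lower in the resistant cells, by small amounts. Of the 44 rows 42 reached the level tested. Of these, 24 were called lower and 4 higher, that is 57.1% and 9.52% of the tested members, against 38.1% and 39.9% of all tested genes. In total 28 members were called, where 78.0% of all tested genes were. Their median change was -0.24, beside 0.01 over all tested genes. Large changes were few: 7 members (16.7%) were called lower by at least 0.5, against 21.8% of all tested genes, and 1 member (2.38%) by at least 1, against 9.39%. In the other direction 2 members were called higher by at least 0.5, against 23.3% of all tested genes, and 0 by at least 1, against 9.95%. The resistant libraries lay entirely below the parental ones for 25 members (59.5%), against 39.0% of tested genes, and entirely above for 4 members (9.52%), against 40.8%, so that groups were separate, in either direction, for 79.8% of all tested genes. MBNL3 reached the tested level in parental cells alone, and when each group mean had to reach 1 FPKM, which leaves it out, 23 members were called lower and 4 higher with a median of -0.23. The 2 rows not tested were SRSF12, a paralog of SRSF10, and HNRNPCL1, a copy of HNRNPC without introns, both under 0.1 FPKM in every library.

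**Figure D1:**
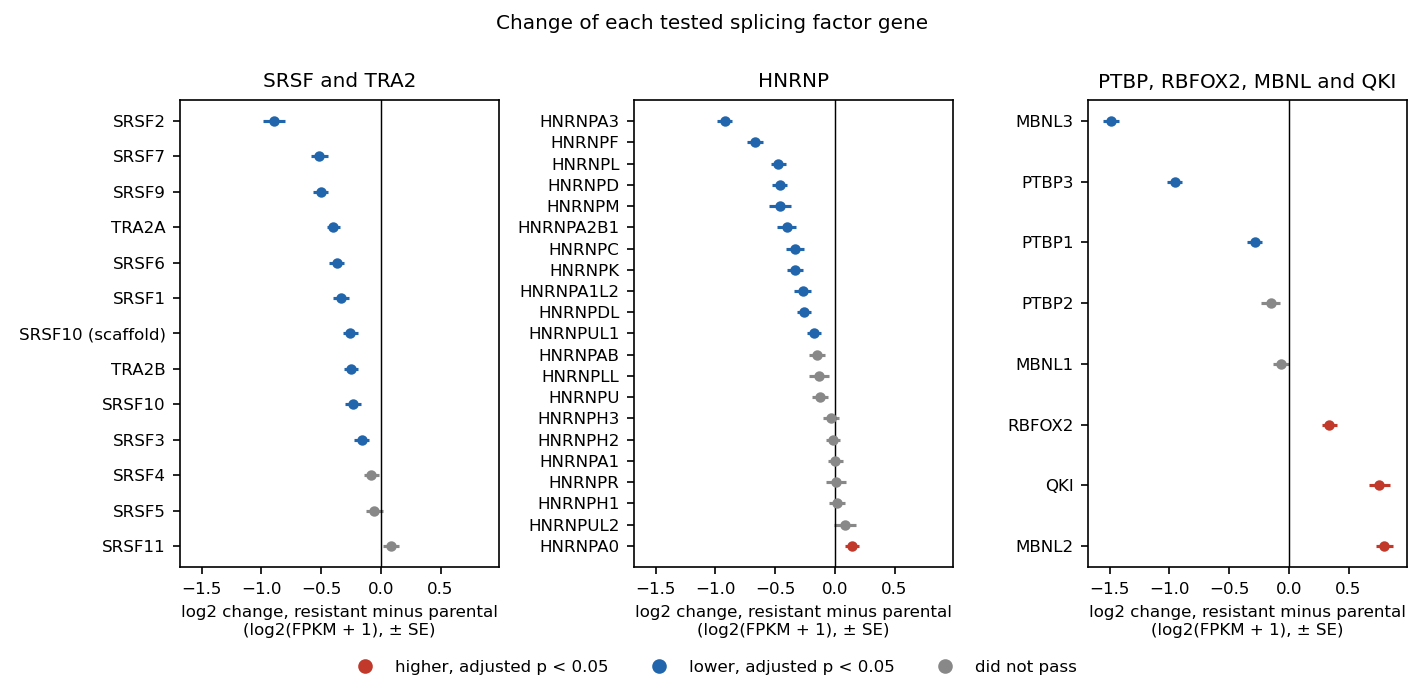
Change of each of the 42 tested rows on the log2(FPKM + 1) scale, resistant minus parental, with SE, in 3 panels by family and ordered by size. Blue points passed as lower, red as higher and grey did not pass; blue points fill the upper part of the SRSF and HNRNP panels, and the red points are HNRNPA0, RBFOX2, QKI and MBNL2.

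The summed level of the 14 SRSF and TRA2 rows was 897, 957 and 880 FPKM in parental replicates 1 to 3 and 723, 724 and 683 FPKM in resistant replicates 1 to 3. The groups did not overlap, and the resistant mean was 77.9% of the parental mean. For the 22 HNRNP rows the sums were 3366, 3425 and 3166 FPKM against 2826, 2848 and 2615 FPKM, or 83.2%. The 8 genes of the PTBP, RBFOX2, MBNL and QKI group held far less of the total, with sums of 292, 296 and 270 against 261, 267 and 260 FPKM, or 91.9%. These sums are descriptions of the chosen genes and carry no test. In bulk RNA, fewer cells of a type and less of an RNA per cell cannot be told apart, and FPKM is a share of each library's fragments.

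Promoter sequence is shown for 3 members, HNRNPA3 and PTBP3, which fell most among the well-expressed members with a promoter entry, and MBNL2, which rose most. Each is the 250 bases upstream of the first start listed by RefSeq on GRCh38.p14, written 5′ to 3′ on the gene's strand, with capitals marking CG dinucleotides. HNRNPA3 is at chr2:177212544-177212793 on the plus strand, PTBP3 at chr9:112333027-112333276 on the minus strand and MBNL2 at chr13:97141584-97141833 on the plus strand.
HNRNPA3: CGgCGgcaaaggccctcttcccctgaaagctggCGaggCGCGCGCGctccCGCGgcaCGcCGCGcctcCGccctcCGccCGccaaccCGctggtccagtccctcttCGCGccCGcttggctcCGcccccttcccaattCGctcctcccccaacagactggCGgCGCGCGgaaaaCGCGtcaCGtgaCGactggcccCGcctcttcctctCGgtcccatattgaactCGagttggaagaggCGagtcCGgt
PTBP3: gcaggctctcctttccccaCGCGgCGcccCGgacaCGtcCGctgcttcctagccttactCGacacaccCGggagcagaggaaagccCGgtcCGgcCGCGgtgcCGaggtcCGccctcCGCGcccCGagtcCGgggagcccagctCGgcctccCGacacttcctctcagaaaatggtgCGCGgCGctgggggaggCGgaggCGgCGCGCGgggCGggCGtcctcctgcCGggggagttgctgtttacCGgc
MBNL2: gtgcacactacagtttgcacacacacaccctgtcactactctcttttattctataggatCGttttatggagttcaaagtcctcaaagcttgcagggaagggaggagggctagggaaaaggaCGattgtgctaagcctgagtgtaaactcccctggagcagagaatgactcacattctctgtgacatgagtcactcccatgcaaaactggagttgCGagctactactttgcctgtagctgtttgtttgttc
The HNRNPA3 window held 34 CG dinucleotides and the PTBP3 window 32, whereas the MBNL2 window, the first of 2 starts listed for that gene, held 3. Which MBNL2 start these cells use was not measured. The MBNL2 window and the MBNL2 gene position given below are on different builds, and the distance between them was not determined. RefSeq entries matched 36 of the 41 tested symbols, and the entries of these 36 had a median of 25 CG dinucleotides, against 11 over all 27305 promoters of the table. Those 27305 promoters were not limited to the genes tested here. The median GC content was 65.6% for the members and 58% for all promoters, and the motif shares below carry no adjustment for it. HNRNPA1, QKI, RBFOX2, SRSF2 and TRA2A had no entry. The letters GGGCGG or their reverse complement CCGCCC stood in 66.7% of the member windows and 42.3% of all windows, and CCAAT or ATTGG in 41.7% and 33.0%. TATAAA or TTTATA stood in 13.9% and 11.1%. CACCTG or CAGGTG, the core of the sites that ZEB and SNAI repressors bind, stood in the window of 1 of the 36 members, HNRNPM, against 17.5% of all windows. These matches describe letters in a window and not binding. Both strands were searched for each motif on its own, so matches of different motifs may share bases.

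Every SR gene that was called was lower. Of the 13 tested SRSF and TRA2 rows 10 were called lower (76.9%, against 38.1% of all tested genes), 0 higher by limma (against 39.9%), and 3 did not pass. The share called in either direction was about that of all tested genes, 78.0%. At an unadjusted p under 0.05, 0 were higher as well, and 0 were called higher in any of the 14 alternative settings. The median change of these rows was -0.25.

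SRSF2, also called SC35, which binds exonic enhancers and marks nuclear speckles (chr17:74730197-74733456, all gene positions on GRCh37), had the largest fall of them. Its level was 140, 157 and 128 FPKM in parental replicates 1 to 3 and 77.0, 82.8 and 67.9 FPKM in resistant replicates 1 to 3. Every resistant library lay below every parental one, and the resistant mean was 53.5% of the parental mean (log2 change -0.89 ± 0.0891 SE, limma adjusted p = 1.7e-06). The gene overlaps MFSD11 on the opposite strand, at a mean of 20.3 FPKM, and reads of the overlap cannot be assigned without strand. SRSF7, a small SR protein with a zinc knuckle that also acts in mRNA export (chr2:38970741-38978636), was at 79.5, 85.1 and 74.5 FPKM in the parental and 58.2, 57.0 and 51.3 FPKM in the resistant libraries. The groups were again separate, with a resistant mean of 69.7% of the parental one (-0.51 ± 0.0714, adjusted p = 2.6e-05). SRSF9, an SR protein close to SRSF1 in its domains (chr12:120899471-120907596), was at 123, 128 and 118 FPKM against 83.5, 91.0 and 85.0 FPKM. That is a fall to 70.3% with no overlap (-0.50 ± 0.0634, adjusted p = 1.1e-05).

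Both TRA2 genes, which encode SR-like proteins that bind purine-rich exonic enhancers, were lower. TRA2A (chr7:23544399-23571660) was at 24.5, 24.6 and 24.2 FPKM in parental and 18.7, 17.96 and 18.3 FPKM in resistant cells, a tight pair of groups (-0.40 ± 0.0560, adjusted p = 3.0e-05). TRA2B (chr3:185633694-185655924) was at 61.7, 64.3 and 63.9 FPKM against 53.7, 54.6 and 50.9 FPKM (-0.25 ± 0.0588, adjusted p = 0.0018). The paralogs thus fell to 74.9% and 83.9% of their parental means.

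The other SR genes called lower changed by less than 0.5. SRSF1, the founding SR protein and a splicing oncoprotein, fell from 117 ± 4.27 to 92.7 ± 6.11 FPKM (SD, n = 3 per group; -0.33), and SRSF6 from 64.2 ± 3.32 to 49.4 ± 2.51 FPKM (-0.37). SRSF3, the smallest SR protein, passed narrowly although the groups overlapped, at 79.5 ± 4.42 and 71.0 ± 3.69 FPKM (-0.16, adjusted p = 0.041). Its call ended without parental replicate 1 (adjusted p = 0.134), parental replicate 2 (0.133), resistant replicate 1 (0.0834) or resistant replicate 3 (0.153), and also on TPM (0.0592), without the filter (0.0598) and without trend and robust moderation (0.0502). The SR genes that did not pass were SRSF4 (-0.08), SRSF5 (-0.05) and SRSF11 (0.09), whose adjusted p-values ran from 0.234 to 0.506. SRSF5 stood at 100 ± 7.24 and 96.4 ± 5.96 FPKM. SRSF5 over SRSF2, as a ratio of FPKM within a library, was 0.654, 0.667 and 0.809 in parental and 1.32, 1.08 and 1.44 in resistant cells.

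SRSF10, a splicing repressor when dephosphorylated, is on chr1:24291294-24307417 and, as a second gene ID, on the unplaced scaffold GL000191.1:36277-50281. The chromosome 1 row was at 30.3 ± 1.24 and 25.6 ± 1.52 FPKM and the scaffold row at 21.7 ± 0.997 and 17.98 ± 0.344 FPKM, and whether shared reads were split between the rows or counted in both cannot be told from these values. The rows changed by -0.23 and -0.25, and their sum, an alternative added after the data were seen, by -0.25 (adjusted p = 0.0028).

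**Figure D2:**
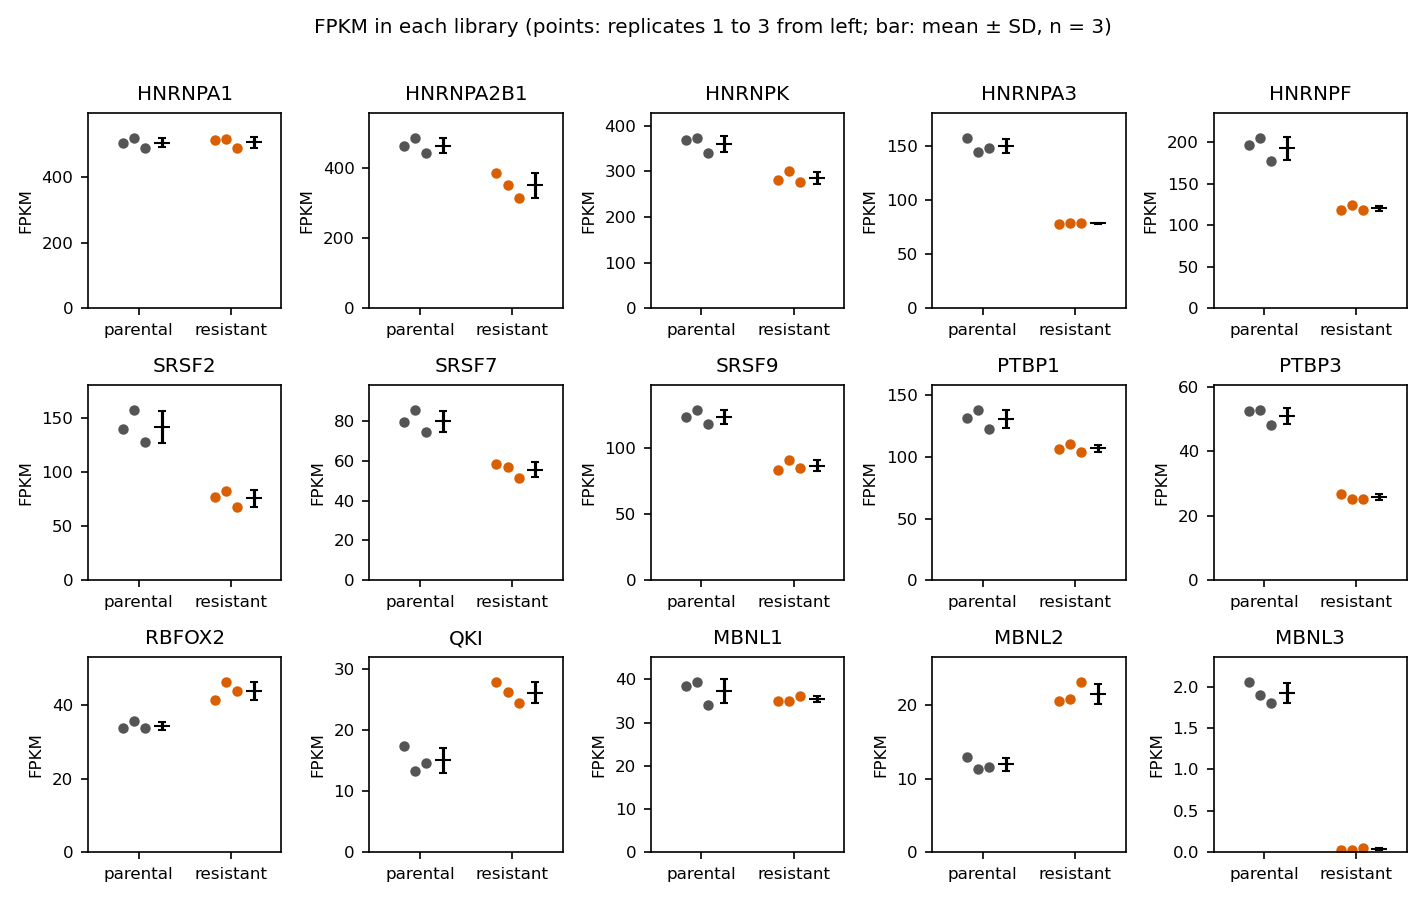
FPKM of 15 members in each library, with replicates 1 to 3 from left to right in each group and the mean ± SD (n = 3) beside them; each panel has its own axis from 0. The groups overlap for HNRNPA1 and MBNL1 and are separate in the other 13 panels, upward for RBFOX2, QKI and MBNL2.

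About as many hnRNP genes were called lower as did not pass. Of 21 tested HNRNP rows 11 were called lower, 1 higher and 9 did not pass, with a median change of -0.17. These are 52.4% lower and 4.76% higher, against 38.1% and 39.9% of all tested genes, so that a smaller share was called than the 78.0% of all tested genes. The 3 members with the highest mean level were HNRNPA1, HNRNPA2B1 and HNRNPK, which held 29.9% of the summed FPKM of all members.

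Within the A/B family, paralogs had changes of different size. HNRNPA1, an abundant repressor of splicing that shuttles to the cytoplasm (chr12:54673977-54680872), was at 504, 517 and 489 FPKM in parental and 512, 516 and 487 FPKM in resistant libraries. The groups overlapped fully, with a change of 0.00 ± 0.0628 (adjusted p = 0.961). HNRNPA2B1, its paralog, a reader of RNA sorting signals (chr7:26229547-26241149), was at 462, 483 and 441 FPKM against 385, 350 and 315 FPKM. All resistant libraries were lower, at 75.8% of the parental mean (-0.40 ± 0.0793, adjusted p = 4.9e-04). It overlaps CBX3 on the opposite strand, at a mean of 182 FPKM. HNRNPA3, another A-type paralog (chr2:178077291-178088686), was at 157, 144 and 148 FPKM against 77.6, 79.0 and 78.7 FPKM. This was the largest fall among the HNRNP rows, to 52.4% of the parental mean with widely separate groups (-0.92 ± 0.0597, adjusted p = 2.0e-08).

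The ratio of HNRNPA1 to HNRNPA3 was 3.22, 3.58 and 3.31 in parental replicates 1 to 3 and 6.59, 6.53 and 6.19 in resistant replicates 1 to 3. HNRNPA1 over HNRNPA2B1 was 1.09, 1.07 and 1.11 against 1.33, 1.47 and 1.55. Neither pair of groups overlapped. An exact permutation test of 3 against 3, two-sided, cannot go below p = 0.1, which was the value for each of the 7 ratios computed (adjusted p = 0.1), and the ratios were chosen after the levels were seen. Each has a gene called lower as denominator or one called higher as numerator, so their shared direction follows from the choice.

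HNRNPA0, an A-type gene without introns that binds AU-rich elements, was the only HNRNP row called higher, at 57.6 ± 0.551 and 63.7 ± 1.61 FPKM (0.14 ± 0.0568, adjusted p = 0.034). Its groups did not overlap, but the call ended without parental replicate 1 (adjusted p = 0.109), parental replicate 2 (0.0627), parental replicate 3 (0.0502), resistant replicate 2 (0.0763) or resistant replicate 3 (0.0927). HNRNPAB was at 176 ± 3.20 and 159 ± 11.5 FPKM and missed the threshold (-0.15, adjusted p = 0.057) although its groups were separate. It passed when median-of-ratios scaling was used (adjusted p = 0.049) or when resistant replicate 2 was left out (adjusted p = 0.034). HNRNPA1L2, a retrotransposed copy of HNRNPA1, fell from 5.07 ± 0.220 to 4.04 ± 0.304 FPKM (-0.27), a low level at which shared reads with HNRNPA1 cannot be separated.

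In the F/H family, whose proteins bind G-rich RNA, HNRNPF alone was called. HNRNPF (chr10:43881065-43904614) was at 197, 205 and 177 FPKM in parental and 119, 124 and 119 FPKM in resistant libraries. The resistant mean was 62.5% of the parental one with no overlap (-0.67 ± 0.0681, adjusted p = 1.5e-06). HNRNPH1 (0.02), HNRNPH2 (-0.02) and HNRNPH3 (-0.03) had overlapping groups and adjusted p-values of 0.785, 0.829 and 0.654. HNRNPH1, at 142 ± 10.3 and 144 ± 3.82 FPKM, thus changed places with HNRNPF in the order of levels. HNRNPH1 over HNRNPF was 0.716, 0.750 and 0.751 in parental and 1.25, 1.14 and 1.21 in resistant libraries.

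**Figure D3:**
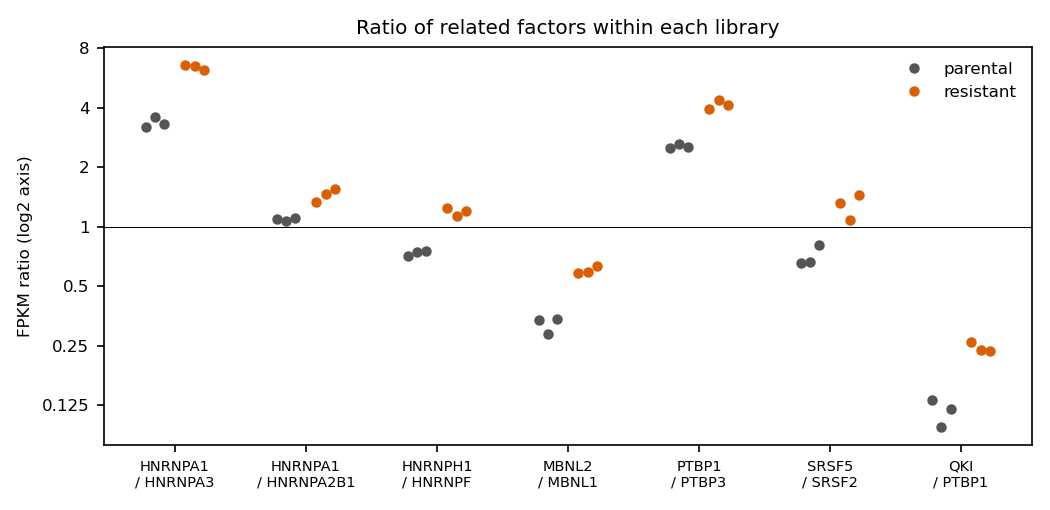
FPKM ratio of 7 pairs of factors in each library on a log2 axis, parental in grey and resistant in orange. All 7 ratios are higher in the 3 resistant than in the 3 parental libraries, with HNRNPA1 over HNRNPA3 at 3.22 to 3.58 and 6.19 to 6.59. The pairs were chosen after the levels were seen, so their shared direction follows from the choice.

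HNRNPK, a KH-domain protein that binds C-rich RNA and single-stranded DNA (chr9:86582998-86595569), was at 370, 372 and 339 FPKM in parental and 281, 300 and 277 FPKM in resistant libraries. The groups were separate, and the resistant mean was 79.3% of the parental one (-0.33 ± 0.0665, adjusted p = 5.5e-04). HNRNPL, which binds CA repeats, fell from 138 ± 8.34 to 99.1 ± 3.80 FPKM (-0.47), whereas its paralog HNRNPLL, known for CD45 splicing in lymphocytes, was at 14.7 ± 1.98 and 13.3 ± 0.721 FPKM (-0.13, adjusted p = 0.176). HNRNPM, which has been tied to mesenchymal splicing in opposition to ESRP1, fell from 208 ± 14.9 to 152 ± 19.6 FPKM (-0.46, adjusted p = 7.4e-04). HNRNPC, which binds uridine tracts and measures transcript length, fell from 275 ± 17.97 to 218 ± 14.4 FPKM (-0.33).

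HNRNPD, also called AUF1, a factor of mRNA decay, fell from 124.8 ± 1.94 to 90.4 ± 5.77 FPKM (-0.46, adjusted p = 2.7e-05), and HNRNPDL, its neighbour on chromosome 4, from 74.3 ± 0.158 to 62.0 ± 2.41 FPKM (-0.26). HNRNPU, a scaffold attachment factor, at 151 ± 9.08 and 139 ± 8.60 FPKM, did not pass (-0.12, adjusted p = 0.122), and neither did HNRNPR (0.01, adjusted p = 0.913). HNRNPUL1, related to HNRNPU, passed at 41.2 ± 1.31 and 36.5 ± 1.76 FPKM (-0.17, adjusted p = 0.021). That call ended without parental replicate 2 (adjusted p = 0.0783), resistant replicate 1 (0.0532) or resistant replicate 3 (0.0836).

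HNRNPUL2 depended on how its locus was counted. Its own row was at 34.0, 32.2 and 27.7 FPKM in parental and 30.4, 37.5 and 32.1 FPKM in resistant libraries, with overlapping groups (0.09 ± 0.0917, adjusted p = 0.398). The readthrough row HNRNPUL2-BSCL2, which spans the gene and its neighbour and is not a member, ranged from 7.59 to 16.5 FPKM in parental and from 13.2 to 23.4 FPKM in resistant libraries. With both rows summed, an alternative added after the data were seen, the change was 0.26 and passed (adjusted p = 0.0013).

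The largest changes in either direction were in the third group, the tissue-regulated factors. Of its 8 genes 3 were called higher, 3 lower and 2 did not pass. At 37.5% in each direction these shares are near those of all tested genes, 39.9% higher and 38.1% lower. The genes called lower include MBNL3, which reached the tested level in parental cells alone, so the even split rests on it. MBNL proteins bind UGC-containing motifs and switch exons from fetal to adult forms, and of their 3 genes 1 was called higher, 1 lower and 1 did not pass. MBNL1 (chr3:151961617-152183569) was at 38.4, 39.3 and 34.1 FPKM in parental and 35.1, 35.1 and 36.2 FPKM in resistant libraries. Those groups overlapped (-0.07 ± 0.0661, adjusted p = 0.374). MBNL2 (chr13:97873688-98046374) was at 12.9, 11.2 and 11.6 FPKM against 20.6, 20.7 and 23.0 FPKM. Its resistant mean was 180% of the parental mean, with no overlap (0.80 ± 0.0701, adjusted p = 3.7e-07).

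MBNL3 (chrX:131503345-131623996), a paralog known for opposing muscle differentiation, was at 2.05, 1.90 and 1.80 FPKM in parental and 0.0292, 0.0346 and 0.0517 FPKM in resistant libraries. MBNL3 passed the filter through parental cells alone, and selection of this kind favours a difference between the groups. All resistant values were near 0, at 2.01% of the parental mean (-1.49 ± 0.0690, adjusted p = 8.8e-10). The log2(FPKM + 1) scale compresses a fall at this level, and with a pseudocount of 0.1 FPKM it was -3.87. The ratio of MBNL2 to MBNL1 was 0.336, 0.286 and 0.341 in parental and 0.586, 0.591 and 0.636 in resistant libraries.

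QKI, a STAR-family protein that regulates splicing and circular RNA formation (chr6:163835032-163999628), was at 17.4, 13.4 and 14.7 FPKM in parental and 27.8, 26.2 and 24.5 FPKM in resistant libraries. The groups were separate, with a resistant mean of 173% of the parental one (0.76 ± 0.0878, adjusted p = 6.6e-06). RBFOX2, which binds UGCAUG and is the RBFOX gene of non-neural cells (chr22:36134783-36424473), was at 33.8, 35.7 and 33.6 FPKM against 41.4, 46.1 and 43.8 FPKM. It rose to 127% with no overlap (0.34 ± 0.0626, adjusted p = 2.9e-04). Its paralogs RBFOX1 and RBFOX3 were below the tested level.

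The PTBP genes encode repressors that bind pyrimidine tracts. PTBP1 (chr19:797075-812327) was at 132, 138 and 123 FPKM in parental and 106, 110 and 104 FPKM in resistant libraries, with no overlap (-0.29 ± 0.0640, adjusted p = 0.0013). PTBP2, the neuronal paralog (chr1:97187221-97289294), was at 3.52, 3.91 and 3.44 FPKM against 3.38, 2.85 and 3.26 FPKM. Its resistant libraries were all lower, but the change did not pass (-0.15 ± 0.0769, adjusted p = 0.088).

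PTBP3, also called ROD1 (chr9:114980715-115095947), was at 52.4, 52.7 and 48.2 FPKM in parental and 26.9, 25.3 and 25.3 FPKM in resistant libraries. It fell to 50.5% of the parental mean with widely separate groups (-0.96 ± 0.0620, adjusted p = 2.0e-08). PTBP1 over PTBP3 was 2.51, 2.61 and 2.55 in parental and 3.95, 4.37 and 4.12 in resistant libraries. QKI over PTBP1 was 0.132, 0.0971 and 0.119 against 0.262, 0.238 and 0.234.

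The members lie on 18 chromosomes and the scaffold of SRSF10, and their changes were set beside those of all tested genes of the same chromosome. Of the 42 members 32 were below and 10 above the median of their chromosome, with a median difference of -0.20. Counted among those below is the scaffold row of SRSF10, whose scaffold held only 2 tested genes, that row included. On chromosome 7, where 568 tested genes had a median of -0.55, HNRNPA2B1 (-0.40) and TRA2A (-0.40) fell by less than that median. On chromosome 13, with a median of -0.42 over 188 genes, MBNL2 (0.80) stood 1.22 above it. QKI (0.76) lies on chromosome 6, whose 607 tested genes had a median of 0.37, and SRSF3 (-0.16) on the same chromosome was 0.53 below it. HNRNPA3 and PTBP3 lie on chromosomes 2 and 9, with medians of -0.21 and -0.19, and SRSF2 on chromosome 17 with -0.04. Gene copy number was not measured in these files.

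**Figure D4:**
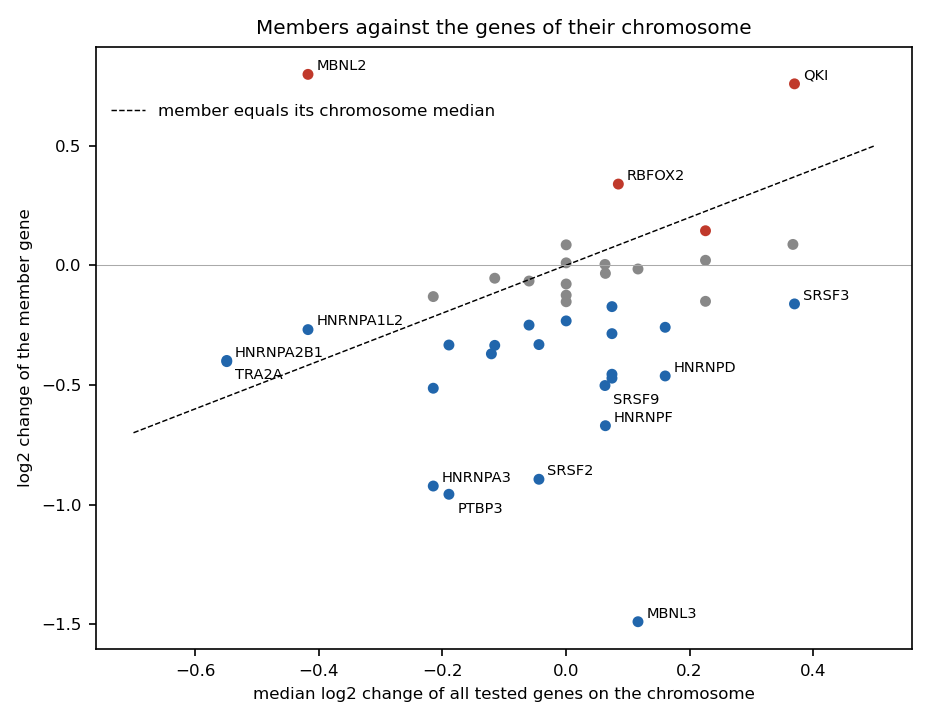
Log2 change of each member against the median log2 change of all tested genes on its chromosome, with the dashed line where the values are equal and colours by call as in the plot of changes by family. MBNL2 and QKI stand above the line, HNRNPA2B1 and TRA2A lie together just above it at a chromosome median of -0.55, and MBNL3, PTBP3, HNRNPA3 and SRSF2 stand far below it.

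SR genes are known for poison exons, whose inclusion sends the transcript to nonsense-mediated decay and so holds the gene's own level in check. In GENCODE v29, 12 of the 12 matched SRSF and TRA2 genes had at least 1 transcript annotated as a target of that decay, as had 13 of 21 HNRNP genes (61.9%) and 3 of the 8 PTBP, RBFOX2, MBNL and QKI genes (37.5%), against 43.9% of the 11918 matched tested genes. Of the members that fell by at least 0.5, SRSF7 had 6 such transcripts, SRSF2 had 2 and SRSF9 had 1, and HNRNPA3, HNRNPF, PTBP3 and MBNL3 had none. Gene FPKM sums over transcripts, so the share of such isoforms was not measured.

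The wider splicing machinery was described with 5 lists. Among core snRNP and U2AF genes, which recognise splice sites and catalyse splicing, 23 of 33 were called lower and 4 higher, with a median of -0.29. These are 69.7% and 12.1%, against 38.1% and 39.9% of all tested genes. PRPF31, a tri-snRNP protein, fell from 135 ± 7.04 to 50.1 ± 3.77 FPKM (-1.41, adjusted p = 1.8e-09). U2AF2, which binds the polypyrimidine tract, fell from 114 ± 7.09 to 61.0 ± 3.91 FPKM (-0.90), and PRPF3, another tri-snRNP protein, from 28.8 ± 1.10 to 16.8 ± 0.403 FPKM (-0.74). Of 23 other hnRNP-class and RNA-binding splicing factors 14 (60.9%) were lower and 3 (13%) higher, with a median of -0.30. TAF15, an RNA-binding protein tied to transcription, fell from 108 ± 2.74 to 52.8 ± 5.08 FPKM (-1.03), and EWSR1 from 121 ± 1.08 to 80.8 ± 4.28 FPKM (-0.58). FUBP3, a KH-domain protein, fell from 47.1 ± 2.28 to 29.4 ± 1.73 FPKM (-0.66).

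Of 11 tested kinases and importins of SR and hnRNP proteins 6 were lower and 4 higher, with a median of -0.21. The 36.4% called higher is near the 39.9% of all tested genes, and the 54.5% called lower stands beside 38.1%. SRPK1, an SR kinase, rose from 23.8 ± 1.19 to 39.0 ± 1.35 FPKM (0.69, adjusted p = 4.7e-07), whereas its paralog SRPK2 was called lower (-0.53). The kinases CLK1 and CLK2 fell, from 20.0 ± 1.88 to 8.76 ± 0.778 FPKM (-1.10) and from 19.1 ± 0.718 to 12.1 ± 0.677 FPKM (-0.62). CLK3 was also called lower (-0.40), CLK4 did not pass (0.01), and PRPF4B (0.33) and DYRK1A (0.25) were called higher. TNPO3, the importin of SR proteins, fell from 38.9 ± 2.87 to 19.1 ± 0.374 FPKM (-0.99), and TNPO2, a transportin that carries hnRNP cargo, rose from 25.9 ± 2.84 to 48.7 ± 2.26 FPKM (0.89). TNPO1, the paralog of TNPO2, was called lower (-0.21). TNPO3 and SRPK2 lie on chromosome 7, whose tested genes had a median of -0.55, as given above.

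Of 17 SR-related genes 10 (58.8%) were lower and 4 (23.5%) higher, against 38.1% and 39.9% of all tested genes, with a median of -0.26. LUC7L2 reached the tested level in parental cells alone, and without it 9 of 16 were lower with a median of -0.22. LUC7L (0.60), SCAF11 (0.51) and ARGLU1 (0.60) rose, and BCLAF1 (-0.57), a regulator tied to mRNA processing, fell. LUC7L2, a U1 snRNP-associated gene on chromosome 7, was at 5.26, 1.29 and 10.1 FPKM in parental libraries, at 0.190 FPKM in resistant replicate 1 and listed at 0 in resistant replicates 2 and 3. The parental values varied widely, and whether reads of this locus went to an overlapping row was not examined. The level of LUC7L2 transcripts as a whole can therefore not be told from this row. Its call (adjusted p = 0.028) ended without parental replicate 1 (adjusted p = 0.0883), resistant replicate 1 (0.0723), resistant replicate 2 (0.0820) or resistant replicate 3 (0.0843).

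In the list of tissue-restricted regulators and their family members, KHDRBS1, ELAVL1 and CELF1 among them, 11 of 25 genes were tested. Of these, 7 were lower (63.6%, against 38.1% of all tested genes) and 1 higher (9.09%, against 39.9%), with a median of -0.46. ESRP1, KHDRBS3, SRRM3 and NOVA1 reached the tested level in 1 group alone, and selection of this kind favours a difference between the groups. With 1 FPKM required of each group mean, 7 genes were left, of which 4 were lower (57.1%, against 37.2% of all genes so tested) and 0 higher by limma (against 38.7%), also 0 at an unadjusted p under 0.05, with a median of -0.26. ESRP1 was at 49.9, 48.6 and 48.0 FPKM in parental libraries, listed at 0 in resistant replicates 1 and 2 and at 0.00236 FPKM in replicate 3. ESRP2 fell from 22.9 ± 2.30 to 1.01 ± 0.216 FPKM (-3.57), and RBM47, a further epithelial splicing regulator, from 23.3 ± 1.58 to 7.39 ± 0.00343 FPKM (-1.53). NOVA1, a neuronal regulator that binds UCAU clusters, was the gene that rose, listed at 0 in parental replicate 1, at 0.00847 and 0.00410 FPKM in replicates 2 and 3 and at 2.47, 3.08 and 2.96 FPKM in resistant libraries.

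**Figure D5:**
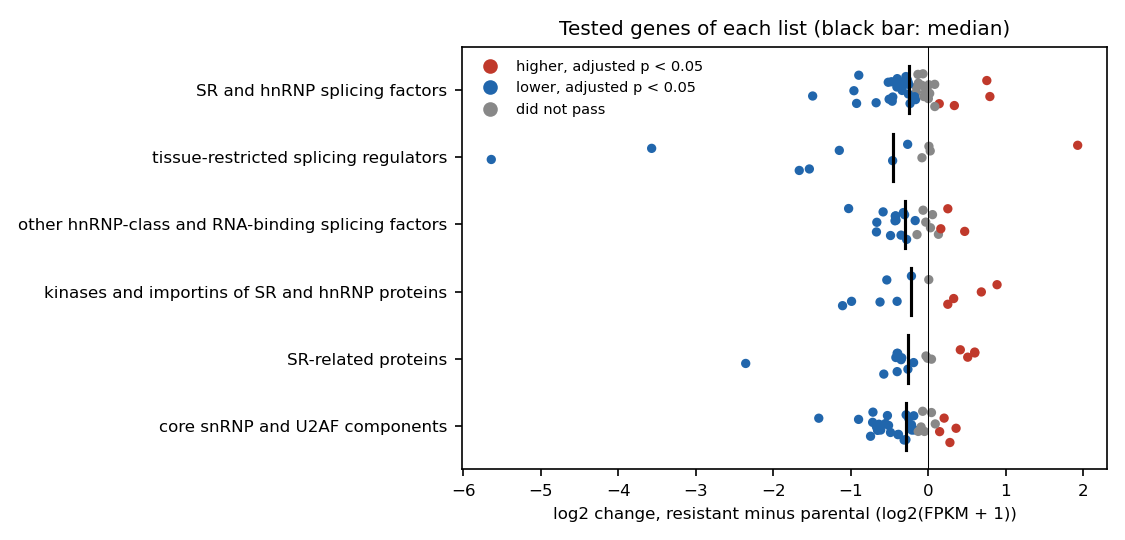
Log2 change of every tested gene in the members and in 5 lists of the splicing machinery, coloured by call, with the median of each list as a black bar. All 6 medians lie below 0, between -0.21 and -0.46, and the points farthest left are ESRP1 and ESRP2.

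Near-identical copies bear on the levels of the A-type genes. The library files list 75 pseudogene rows named after HNRNPA1, which summed to 39.4 FPKM in parental and 32.0 FPKM in resistant cells, 7.08% of the HNRNPA1 level. The 16 rows named after HNRNPA3 summed to 8.18 and 4.44 FPKM, 5.53% of its level, and the largest of them, HNRNPA3P6, was at 5.85 and 2.98 FPKM. Copies of HNRNPC, 10 rows, summed to 4.56 and 3.42 FPKM. Reads shared between a gene and its copies cannot be assigned from these files. In all, 10 members overlap another gene with a mean of at least 1 FPKM, 6 of them on the opposite strand.

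Resistant replicate 3 held the lowest resistant value for 25 of the 42 members (59.5%), against 22.9% of all tested genes, and parental replicate 3 the lowest parental value for 30 (71.4%), against 52.4%. Without resistant replicate 3, 22 members were called lower and 3 higher with a median of -0.21. Without parental replicate 3 the counts were 24 and 3, with a median of -0.25.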

How the data were processed

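Total RNA of each culture was sequenced as mRNA libraries. The deposited series table holds FPKM, 1 column per library, made by the authors; for the build, the submitters' processing notes give GRCh37, and they list DESeq without a role. The library files hold, per the file headers, coordinates, coverage (a signal), FPKM and TPM, all deposited by the authors. The sources used here do not give aligner, quantifier, annotation release or strandedness. No read counts were used.

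Groups came from the titles. Genes whose mean reached 1 FPKM in at least 1 group were fitted by limma 3.58.1 (R 4.3.3) on the log2(FPKM + 1) scale with intensity trend, robust moderation and Benjamini-Hochberg adjustment over all 12107 genes; the script was tested on simulated data. Members and lists were chosen with earlier results of these data known. Values of every library are given for members called with a change of at least 0.5, for tested PTBP, RBFOX2, MBNL, QKI and TRA2 genes and for the 3 highest members. Per list, up to 3 genes per direction are named, by lowest adjusted p at a change of at least 0.5, and ESRP1, ESRP2 and RBM47 always. Further list genes are named where they limit the reading of these. Promoters are from RefSeq (GRCh38.p14), transcript types from GENCODE v29 by gene ID. There were 14 alternative settings and 2 added after the data were seen.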

Additional observations from a re-analysis of the deposited data

Results flagged for a closer look

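Pseudogene rows of the library files were not used in the comparison of members. Among those with a mean of at least 1 FPKM, 2 copies of HNRNPA1 lay entirely above the parental level. Of the other HNRNPA1 copies at that level, HNRNPA1P7 and HNRNPA1P48 had overlapping groups and HNRNPA1P33 lay below. Over all tested genes the resistant libraries lay entirely above the parental ones for 40.8%. Parental FPKM of HNRNPA1P10 were 8.86, 8.52 and 8.93, and resistant FPKM of the same row were 10.3, 10.4 and 10.9. HNRNPA1P16 was at 1.20, 1.73 and 1.20 FPKM in parental and at 2.18, 2.10 and 2.21 FPKM in resistant replicates. Neither difference was tested. Rows of other copies lay entirely below the parental level, among them HNRNPA1P33, HNRNPA3P6 and HNRNPCP2. The 75 HNRNPA1 copies together summed to 39.4 FPKM in parental and 32.0 FPKM in resistant cells.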

How the results depend on the processing

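Across the 14 alternative settings the members called numbered 25 to 29, beside 28, with 22 to 25 lower and 3 to 4 higher, and their median change ran from -0.26 to -0.20. Calls over all genes ran from 8217, with 1 FPKM or more in both groups, to 11014, with no filter. No member reversed, and neither did any of the 20 list genes named by the rule given above. Of 589 values of single members 571 stayed on their side of the threshold; 15 lost the call, all of them SRSF3, HNRNPA0 or HNRNPUL1, and 3 gained it, HNRNPAB in 2 settings and HNRNPUL2 with its readthrough row. Leaving out each library in turn gave 25 to 28 called members. Whether replicate numbers pair the samples cannot be settled with 3 libraries per group. Deviations from the group means correlated at -0.14, 0.08 and 0.10 for same-numbered libraries. Resistant replicates 2 and 3 correlated best with their own number, and resistant replicate 1 did not. A replicate block gave 28 called members and 9422 called genes, beside 9448, and ended the call of LUC7L2 (adjusted p = 0.069). No scaling moved the median of all genes by more than 0.04. Depth in reads is unknown, which limits what can be said of genes near 0, such as MBNL3.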

Other observations

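SRSF8, an SR gene that arose by retrotransposition, is not a row of the series table but stands under 2 overlapping gene IDs on chromosome 11 in the library files. The longer one (chr11:94800056-94804388) was at 3.996, 3.50 and 4.04 FPKM in parental and 1.68, 1.29 and 1.30 FPKM in resistant libraries, with no overlap. The shorter one inside it (chr11:94800361-94802388) was at 3.94, 4.62 and 3.82 FPKM against 3.47, 3.86 and 3.54 FPKM, with overlapping groups. The IDs share their locus, so the division of reads between them cannot be told from these values.

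Copies of HNRNPA1 did not follow one direction. HNRNPA1P33 (chr10:47133338-47133898) was at 8.78, 8.81 and 10.7 FPKM in parental and 1.65, 1.70 and 0.950 FPKM in resistant libraries, whereas HNRNPA1P48 stayed at 5.65 and 5.24 FPKM and HNRNPA1 itself was at 504 and 505 FPKM. These rows were not tested.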
